A study of Mus musculus with 2 samples.

Results

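The genes described here are the matrix proteases and their inhibitors. They are all genes of the deposited table whose whole symbol is Mmp, Timp, Adamts or Adamtsl followed by a number, 47 of 19169 genes: 19 Mmp genes, 4 Timp genes, 19 Adamts genes and 5 Adamtsl genes. They were measured by single-cell RNA-seq in the gastrocnemius of male mice on day 14 after cardiotoxin (CTX), a toxin from snake venom that lyses muscle fibers but spares the stem cells that rebuild them. One library came from WT (C57BL/6J) mice and the other from GSDME-KO mice, which lack gasdermin E (Gsdme) in every cell. Both groups received CTX and there was no uninjured group. The methods list 5 mice per group without saying if they were pooled into the library, and the labels give no age. With 1 library per genotype, values are compared without a test. Intervals are exact 95% intervals and cover counting error only, not the spread between mice. The 2 libraries are called by their labels throughout because Gsdme RNA, the check of a knockout, was not clearly lower in either. It had 225 UMIs (5.03 CPM) in 6354 cells of the WT-labelled and 237 UMIs (4.65 CPM) in 7078 cells of the KO-labelled library. The sources used here do not say which part of the gene the KO removes. Whether the KO allele still leaves RNA that would be counted at the 5′ end was not tested.

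Matrix metalloproteinases (MMPs) are zinc proteases that cut collagens, gelatins, laminins and other proteins outside the cell. Most are secreted as inactive proenzymes, while the membrane-type MMPs stay at the cell surface. Tissue inhibitors of metalloproteinases (TIMPs) block their active site, and TIMP2 also bridges the membrane-type protease MMP14 and proMMP2 so that MMP2 is activated. ADAMTS proteases carry thrombospondin repeats and cut procollagens (ADAMTS2, ADAMTS3 and ADAMTS14) or large proteoglycans such as versican and aggrecan (ADAMTS1, ADAMTS4, ADAMTS5, ADAMTS9 and others). ADAMTS-like (ADAMTSL) proteins have a similar frame without the protease and bind the fibrillin network. In injured muscle these proteins clear and rebuild the matrix around fibers, and fibro-adipogenic progenitors (FAPs), the PDGFRA-positive stromal cells of muscle, make much of that matrix.

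The 2 libraries held 44758518 and 50930009 unique molecular identifiers (UMIs), which count RNA molecules captured by a 5′ tag. Levels are UMIs of a gene per 1000000 UMIs summed over the cells of a type in a library (CPM). A UMI stands for a molecule, so levels of different genes are per captured molecule and need no scaling by length. Cells were clustered without the 47 genes and named by markers. Types with at least 50 cells were FAP-like (2136 cells in the WT-labelled and 2542 in the KO-labelled library), endothelial-like (1234 and 1212), macrophage-like (852 and 1033), muscle stem cell (MuSC)-like (248 and 249), Schwann cell-like (196 and 156), pericyte-or-smooth-muscle-like (183 and 201) and dendritic cell-like cells (116 and 129). Lymphatic endothelial-like, T cell-like, B cell-like, NK cell-like, neutrophil-like and mature-muscle-like cells had 25 to 86 cells each per library. The neutrophil-like cluster also carried monocyte genes. The FAP-like cells include a cluster of 402 and 359 cells that carried tendon markers (Fmod, Tnmd, Chad and Kera among its leading genes) and was joined to them. Of these, 389 and 330 fell into the subset FAPs-2. A further cluster of 300 and 356 cells held pericyte and endothelial markers together, was given no type and is named where it bears on a result. Other clusters, with 775 and 832 cells in all, also took no type and are left out of the levels and shares by type. The largest of these (323 and 329 cells) scored highest for endothelial markers, and another (106 and 138) was led by Lyz1 and Retnla. The 8 FAP markers summed to 67027 and 63475 CPM in FAP-like cells, and to 1296 and 1259.9 in endothelial-like cells. How much of the latter was stray RNA was not tested. The 2 libraries shared 4 cell barcodes.

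Of the 47 genes, 6 lie side by side on chromosome 9 with no coding gene other than further Mmp genes between them. In GRCm38.p6, the build of the RefSeq annotation used here (the submitters' processing notes name mm10, the same primary assembly), they run in the order Mmp13, Mmp12, Mmp3, Mmp10, Mmp8 and Mmp27 from position 7272514 to 7581885. RefSeq promoter windows, from 250 bases before to 50 after each start, were at hand for 32 of the 47 genes (34 windows). The AP-1 motif TGANTCA, read on both strands, was in 4 of these 34 windows, and those 4 belong to Mmp13, Mmp12, Mmp3 and Mmp10. It was in 7.81% of all 32851 windows. The same 4 windows also held TATAAA, a pair found together in 1.54% of all windows. The stretches from 80 bases before to 20 after the RefSeq start are shown because they hold both motifs, with TGANTCA and TATAAA in capitals.
Mmp13, chr9:7272434-7272533, + strand: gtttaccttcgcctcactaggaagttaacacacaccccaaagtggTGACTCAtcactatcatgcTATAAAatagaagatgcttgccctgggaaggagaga
Mmp12, chr9:7347294-7347393, + strand: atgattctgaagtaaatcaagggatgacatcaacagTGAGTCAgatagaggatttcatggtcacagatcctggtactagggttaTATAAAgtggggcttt
Mmp3, chr9:7445742-7445841, + strand: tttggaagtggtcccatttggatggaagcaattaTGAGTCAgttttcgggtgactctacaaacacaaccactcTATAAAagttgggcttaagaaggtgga
Mmp10, chr9:7502262-7502361, + strand: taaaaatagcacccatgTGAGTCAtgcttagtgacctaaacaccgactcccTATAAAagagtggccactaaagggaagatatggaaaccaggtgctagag
The first base of the AP-1 letters stood 35 bases before the start in Mmp13, 44 in Mmp12, 46 in Mmp3 and 63 in Mmp10. That of TATAAA stood 16 bases before the start in Mmp13, 7 in Mmp3 and 29 in Mmp10, and at base 5 after it in Mmp12. The spacing of the motifs was thus not shared. Mmp12 has a second RefSeq window further upstream that held neither motif. Mmp27, at the end of the row, had neither, and Mmp8 had TATAAA only, on the opposite strand. These 7 windows had 37.7% to 46.0% G and C, against a median of 63.3% over all member windows and 52.7% over all windows. The letters describe these windows and do not show that a factor binds there.

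Despite this shared layout the neighbors were read in different cells. Mmp3, a stromelysin that cuts proteoglycans and laminin, was read mainly in FAP-like cells, with 62.3 CPM in the WT-labelled and 74.3 in the KO-labelled library. Mmp12, the macrophage elastase, had levels of 42.7 and 48.8 CPM in macrophage-like cells and of 0.603 and 0.263 in FAP-like cells. A large part of its 1440 UMIs lay in cells outside the types listed above, which these levels leave out. Mmp13, the main collagenase of mouse, was read in macrophage-like cells (12.4 and 23.9 CPM) and, among FAP-like cells, in the subset FAPs-2 (5.54 and 5.04 CPM, at most 0.264 in any other named subset). The FAPs-2 value rested on few cells, as only 0.234% and 0.236% of all FAP-like cells had a UMI of Mmp13. Mmp8, the collagenase of neutrophil granules, had 30 UMIs in all, of which 3 and 20 were in the 25 and 33 neutrophil-like cells. Mmp27 had 117 UMIs and was mostly in FAP-like cells (38 and 65 UMIs), while Mmp10 had 7 UMIs in the whole table. Mmp12 also showed how few cells can set a value: the 25 neutrophil-like cells of the WT-labelled library held 385 Mmp12 UMIs, but 5 cells carried them and 1 cell alone held 199.

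**Figure D1:**
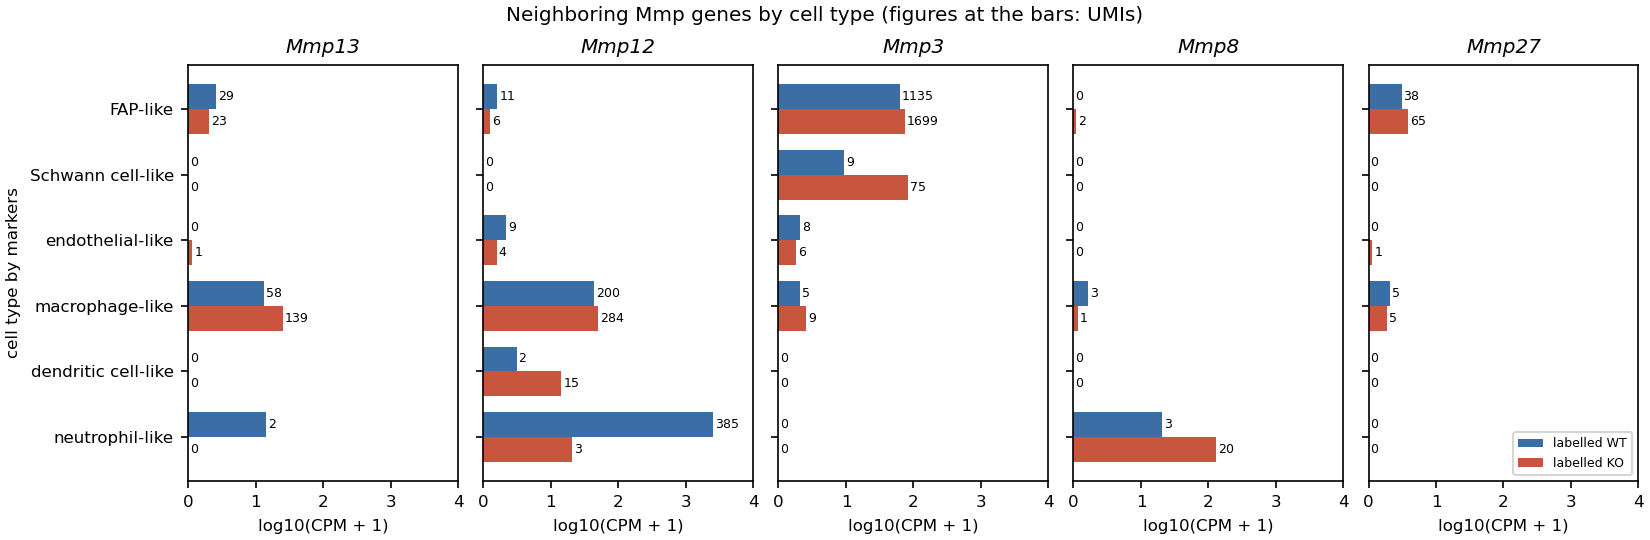
Levels of 5 of the 6 neighboring Mmp genes of chromosome 9, as log10(CPM + 1) on the horizontal axis, in 6 cell types on the vertical axis, where bars are the 2 libraries and the figure at each bar is its number of UMIs. Among these 6 types, Mmp3 is highest in FAP-like cells but for the 75 UMIs of the KO-labelled Schwann cell-like group, which lie in 1 cell. Of the types shown, Mmp12 is read mainly in macrophage-like and neutrophil-like cells, and Mmp13 mainly in macrophage-like cells. Cells without a type are not shown.

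Across the 13 types, 15 of the 47 genes had their highest level in FAP-like cells in both libraries. Among the 41 genes with at least 100 UMIs in the table the count was 13 of 41 (31.7%), while 670 of all 13380 genes with as many UMIs (5.01%) were highest in FAP-like cells. Types with few cells can take the first place by a handful of UMIs, and the count so leaves out Adamts6, which had 16.3 CPM from 4 UMIs in B cell-like cells of the KO-labelled library against 11.4 in FAP-like cells. The share of UMIs held by FAP-like cells, out of all 13 types, was 97.2% and 97.6% for Mmp23, 97.2% and 97.3% for Adamts19, 96.2% and 96.9% for Adamts2, and 96.0% and 96.5% for Mmp2. At the other end it was 1.96% and 1.21% for Timp4 and 4.61% and 3.04% for Mmp15. A further 4 genes had fewer than 20 UMIs and are only counted (Mmp10, Mmp21, Mmp24 and Adamts13, with 3 to 13 UMIs).

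**Figure D2:**
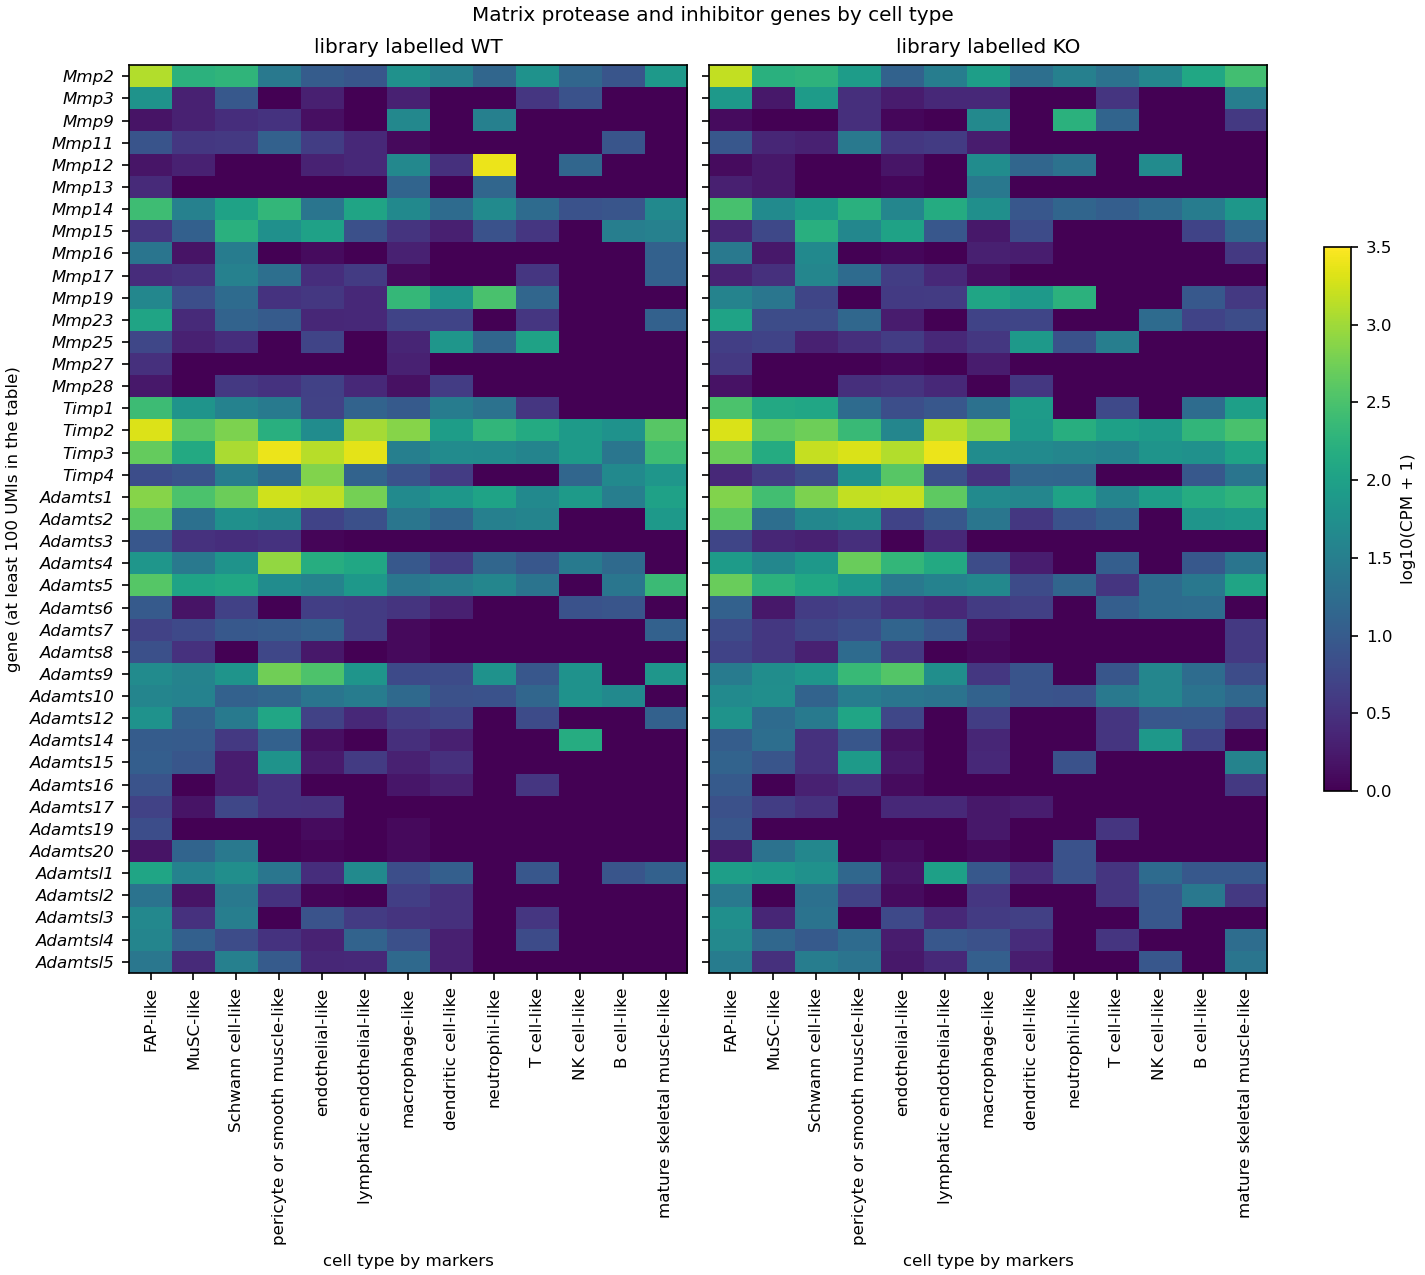
Levels of the 41 genes with at least 100 UMIs, as log10(CPM + 1) by color, in 13 cell types (columns), with the WT-labelled library on the left and the KO-labelled library on the right. FAP-like cells carry most genes at some level, with Timp2 and Mmp2 the highest there, while Timp4 stands out in endothelial-like cells and Mmp9 and Mmp19 in macrophage-like and neutrophil-like cells.

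The gelatinases, which cut denatured collagen and basement membrane collagen, were split between stroma and myeloid cells. Mmp2 stood at 1258 CPM in the WT-labelled and 1507 in the KO-labelled library in FAP-like cells. The next highest value was 192 in Schwann cell-like cells of the WT-labelled and 274 in mature-muscle-like cells of the KO-labelled library. Mmp9 was near 0 in FAP-like cells (0.548 and 0.263 CPM) and reached 42.5 and 43.6 in macrophage-like cells. Most of it lay in the macrophage cluster led by Folr2, F13a1 and Ccl24 (156 and 175 CPM), and little in the larger cluster led by Ms4a7, Ccl3 and C1qb (5.78 and 6.57). Mmp12 had the reverse pattern, with 60.2 and 63.3 CPM in the Ms4a7 cluster. Mmp12 had 1 UMI in each library in the Folr2 cluster.

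The membrane-type MMPs were split between stroma, nerve, vessel and immune cells. Mmp14 (MT1-MMP), which cuts fibrillar collagen at the cell surface and activates proMMP2, stood at 258 CPM in the WT-labelled and 299 in the KO-labelled library in FAP-like cells and at 204 and 166 in pericyte-or-smooth-muscle-like cells. Mmp15 was highest in Schwann cell-like cells (168 and 159 CPM) and next in endothelial-like cells (98.4 and 103). Mmp17 was highest in Schwann cell-like cells as well (33.4 and 40.0 CPM), and so was Mmp16, with levels in Schwann cell-like cells of 28.7 and 45.5 CPM, followed by FAP-like cells at 22.1 and 25.1. Mmp25, known from leukocytes, was read in dendritic cell-like (68.1 and 78.1 CPM) and T cell-like cells (102 and 30.1). Among the remaining MMPs, Mmp19 was highest in the few neutrophil-like cells and next in macrophage-like cells (216 and 112 CPM). Mmp23 was a FAP gene (108 and 105), Mmp11 reached 11.2 and 25.2 in pericyte-or-smooth-muscle-like cells on 5 and 13 UMIs, and Mmp28 stayed under 4 CPM in all 13 types.

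Each TIMP had its own set of cells. Timp1 was highest in FAP-like cells (252 CPM in the WT-labelled and 319 in the KO-labelled library) and next in MuSC-like cells (63.5 and 129). Timp2, the most abundant of the 47 genes with 100651 UMIs, stood at 2055 and 2019.7 CPM in FAP-like, 1072 and 1281 in lymphatic endothelial-like and 732 and 758 in macrophage-like cells, but only 49.2 and 39.4 in endothelial-like cells. Timp3, which binds to the matrix and also inhibits ADAM and ADAMTS proteases, was the TIMP of vessels: 2485 and 2010.1 CPM in pericyte-or-smooth-muscle-like, 2275 and 2532 in lymphatic endothelial-like, 1346 and 1261 in endothelial-like and 1131 and 1557 in Schwann cell-like cells. Pericyte-or-smooth-muscle-like and lymphatic endothelial-like cells changed places between the libraries as the highest type for Timp3. Timp4 was almost restricted to blood endothelium, with 687 CPM in the WT-labelled and 391 in the KO-labelled library in endothelial-like cells and 12.2 and 6.24 in lymphatic endothelial-like cells. Timp1, Timp3 and Timp4 lie inside the spans of the Syn1, Syn3 and Syn2 genes. These had 44 and 59, 543 and 622, and 154 and 155 UMIs in the table, and whether counting used the strand is not given in the sources used here.

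Endothelial-like cells fell into a cluster led by Flt1, Aqp1 and Timp4 itself, and a cluster led by Aplnr, Pdgfb and Sox18. Timp4 stood at 652 and 359 CPM in the first and at 877 and 559 in the second, although the clusters were drawn without it. The stretch of the Timp4 promoter from 150 bases before to 20 after its start is shown because this gene had the clearest difference between the libraries; neither TGANTCA nor the NF-kB consensus nor TATAAA was found in its 300-base window.
Timp4, chr6:115252186-115252355, - strand: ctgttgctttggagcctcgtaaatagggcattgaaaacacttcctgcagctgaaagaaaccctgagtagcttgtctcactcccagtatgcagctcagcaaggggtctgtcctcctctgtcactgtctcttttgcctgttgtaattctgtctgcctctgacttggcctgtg
The window of Timp4 had 2 CpG, against a median of 18.5 over the member windows and 7 over all windows. Of the other TIMPs, Timp2 held the NF-kB consensus, found in 20.7% of all windows, while Timp1 and Timp3 held none of the 3 motifs.

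**Figure D3:**
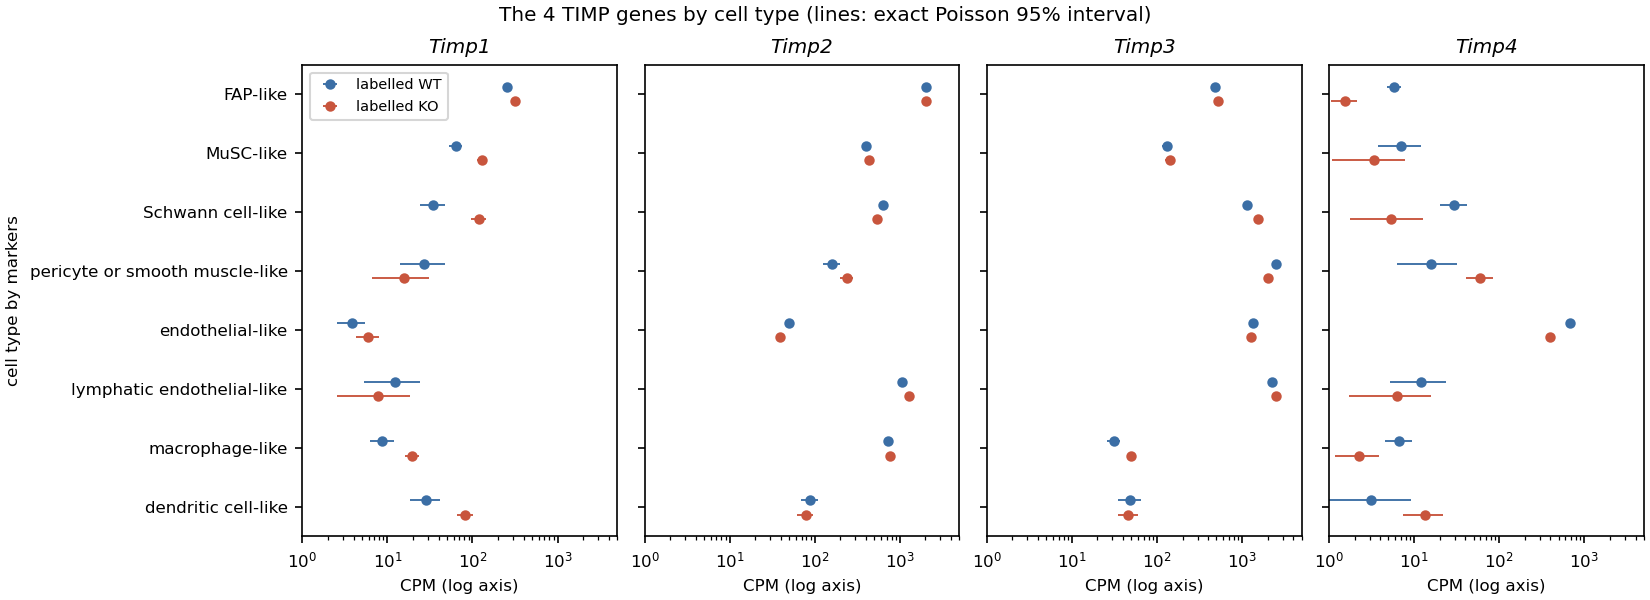
Levels of Timp1, Timp2, Timp3 and Timp4 in CPM on a log axis, in 8 cell types; points are the 2 libraries and lines are exact Poisson 95% intervals. Timp4 is highest in endothelial-like cells in both libraries and lower in the KO-labelled one. Timp1 is higher in the KO-labelled library in FAP-like, MuSC-like, Schwann cell-like, macrophage-like and dendritic cell-like cells, and lower in pericyte-or-smooth-muscle-like cells.

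Among the ADAMTS proteases that cut proteoglycans, Adamts1, Adamts4 and Adamts9 were genes of vessels and Adamts5 was a gene of FAPs. Adamts1 stood at 1778 and 1519 CPM in pericyte-or-smooth-muscle-like and 1477 and 1601 in endothelial-like cells, and at 725 and 695 in FAP-like cells. Its neighbor on chromosome 16, Adamts5, the main aggrecanase of mouse cartilage, stood at 377 and 505 in FAP-like and 36.0 and 25.2 in endothelial-like cells. Adamts4 and Adamts9 were highest in pericyte-or-smooth-muscle-like cells of the WT-labelled library (862 and 555 CPM). Adamts15 stood at 62.7 and 79.3 in the same cells, with 28 and 41 UMIs, and Adamts20, known from pigment cell migration, was highest in Schwann cell-like cells (27 and 38 UMIs) and next in MuSC-like cells (23 and 29 UMIs, 12.4 and 19.6 CPM). Adamts8, which is next to Adamts15 on chromosome 9, stayed under 16 CPM in all 13 types.

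Of the procollagen N-proteinases, which remove the N-terminal propeptide of fibrillar collagens, Adamts2 was by far the most abundant, with 403 CPM in the WT-labelled and 417 in the KO-labelled library in FAP-like cells. Adamts3 reached 7.95 and 4.46 CPM there. Adamts14 stood at 9.54 and 9.93 in FAP-like cells but was highest in NK cell-like cells, at 147 and 71.7 CPM; its 22 and 9 UMIs there lay in 15 of 32 and 9 of 28 cells, with at most 3 in 1 cell. Adamts12, which cuts cartilage oligomeric matrix protein (COMP), was highest in pericyte-or-smooth-muscle-like (119 and 114 CPM) and next in FAP-like cells (60.8 and 62.2), and Adamts7, with the same substrate, was highest in endothelial-like cells (11.3 and 12.5). Adamts18, with 66 UMIs in all, was highest in endothelial-like cells, which held 19 of 26 and 18 of 40. Adamts16 and Adamts19 were FAP genes at 6.91 and 8.88 and at 5.65 and 7.75 CPM, Adamts10 was read widely (38.4 and 46.0 in FAP-like cells), and Adamts6 and Adamts17 stayed under 12 CPM in all types of 100 or more cells per library.

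The ADAMTSL genes were all read in FAP-like cells. Adamtsl1 stood at 113 CPM in the WT-labelled and 91.1 in the KO-labelled library, and reached 45.6 and 96.7 in lymphatic endothelial-like cells. Adamtsl3 and Adamtsl4 had 41.6 and 53.9 and 38.1 and 44.0 CPM in FAP-like cells. Adamtsl5 stood at 23.7 and 28.4 CPM in FAP-like and 32.4 and 29.2 in Schwann cell-like cells. Adamtsl2 stood at 20.6 and 24.7 in FAP-like cells, and Schwann cell-like cells held 27 and 17 UMIs of it. All 5 had fewer UMIs than Adamts2 in FAP-like cells.

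Within FAP-like cells 5 subsets took a name from the study's markers: FAPs-0 (Hsd11b1, Mme, with 956 and 1304 cells), FAPs-2 (Fmod, Wif1, with the tendon genes Tnmd and Scx among its leading genes, with 395 and 337), FAPs-3 (Sfrp4, C2, with 137 and 119), FAPs-4 (Pi16, Efemp1, with 333 and 455) and FAPs-6 (Clu, Cpe, with 277 and 297). No group took the names FAPs-1 or FAPs-5. The first of the leading genes of FAPs-0 was Dlk1, and its score was 2.05, followed by 1.37 for FAPs-1. Without integration, a FAPs-1 group of 567 and 810 cells stood beside a FAPs-0 group of 234 and 364. Values given for FAPs-0 are those of the broader group. A gene is counted here where it was at least 2-fold higher in a subset than in the other FAP-like cells in both libraries. Of the 39 genes with at least 20 UMIs in FAP-like cells, 17 were so in 1 of the subsets. By subset these were 3 in FAPs-0 (2.07% of 13494 genes), 3 in FAPs-2 (5.83%), 2 in FAPs-3 (2.28%), 8 in FAPs-4 (3.74%) and 1 in FAPs-6 (3.45%).

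FAPs-4, the cells with Pi16 and Dpp4, held the largest share of the 17: Adamts5, Adamts15, Adamts16, Adamts19, Adamtsl4, Adamtsl5, Mmp27 and Timp3. Adamts5 stood at 1220.2 CPM against 236 in the other FAP-like cells of the WT-labelled library and 1475 against 314 in the KO-labelled library. Adamts16 stood at 38.3 CPM against 1.66 in the other FAP-like cells of the WT-labelled library and 40.6 against 2.62 in the KO-labelled library, so that it was close to confined to these cells. Adamtsl4, whose protein binds fibrillin in microfibrils, stood at 124 CPM against 23.7 in the other FAP-like cells of the WT-labelled library and 129 against 27.1 in the KO-labelled library. Timp3 was 850.2 CPM against 415 in the other FAP-like cells of the WT-labelled library and 969.7 against 429 in the KO-labelled library. FAPs-4 were also low in several genes. Timp1 stood there at 114 and 167 CPM, against 454 and 525 in FAPs-2, and Mmp3 at 14.9 and 33.7, against 171 and 158 in FAPs-3. Timp2 did not pass the 2-fold rule in any subset, but it was highest in FAPs-4 (3187 and 3265 CPM) and FAPs-2 (2929.8 and 2779) and lowest in FAPs-0 (1286 and 1466).

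The other subsets had smaller sets. FAPs-2 were higher in Adamts3 (21.1 CPM against 3.14 in the other FAP-like cells of the WT-labelled library and 12.8 against 2.70 in the KO-labelled library), in Mmp13 and in Mmp28, and they were lowest of the subsets in Adamts5 (58.5 and 75.1 CPM) and Adamts12 (8.62 and 11.1). In FAPs-2 the Mmp13 value rested on 27 and 20 UMIs and the Mmp28 value on 10 and 7. FAPs-0 were higher in Adamtsl2 (43.2 CPM against 4.51 in the other FAP-like cells of the WT-labelled library and 40.5 against 7.80 in the KO-labelled library), Adamts14 and Adamts8. The Adamts8 value rested on few cells: its UMIs lay in 14 of 956 and 24 of 1304 cells, with 41 and 43 in 1 cell. FAPs-3 were higher in Mmp3 (171 CPM against 56.9 in the other FAP-like cells of the WT-labelled library and 158 against 71.2 in the KO-labelled library) and in Mmp23. FAPs-6 were higher in Adamts12 (174 CPM against 47.8 in the other FAP-like cells of the WT-labelled library and 152 against 53.1 in the KO-labelled library). Mmp14 differed little between the subsets, from 237 to 309 CPM in the WT-labelled and from 263 to 320.5 in the KO-labelled library, and Mmp2 was lowest in FAPs-6 in both libraries (776 and 1075).

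**Figure D4:**
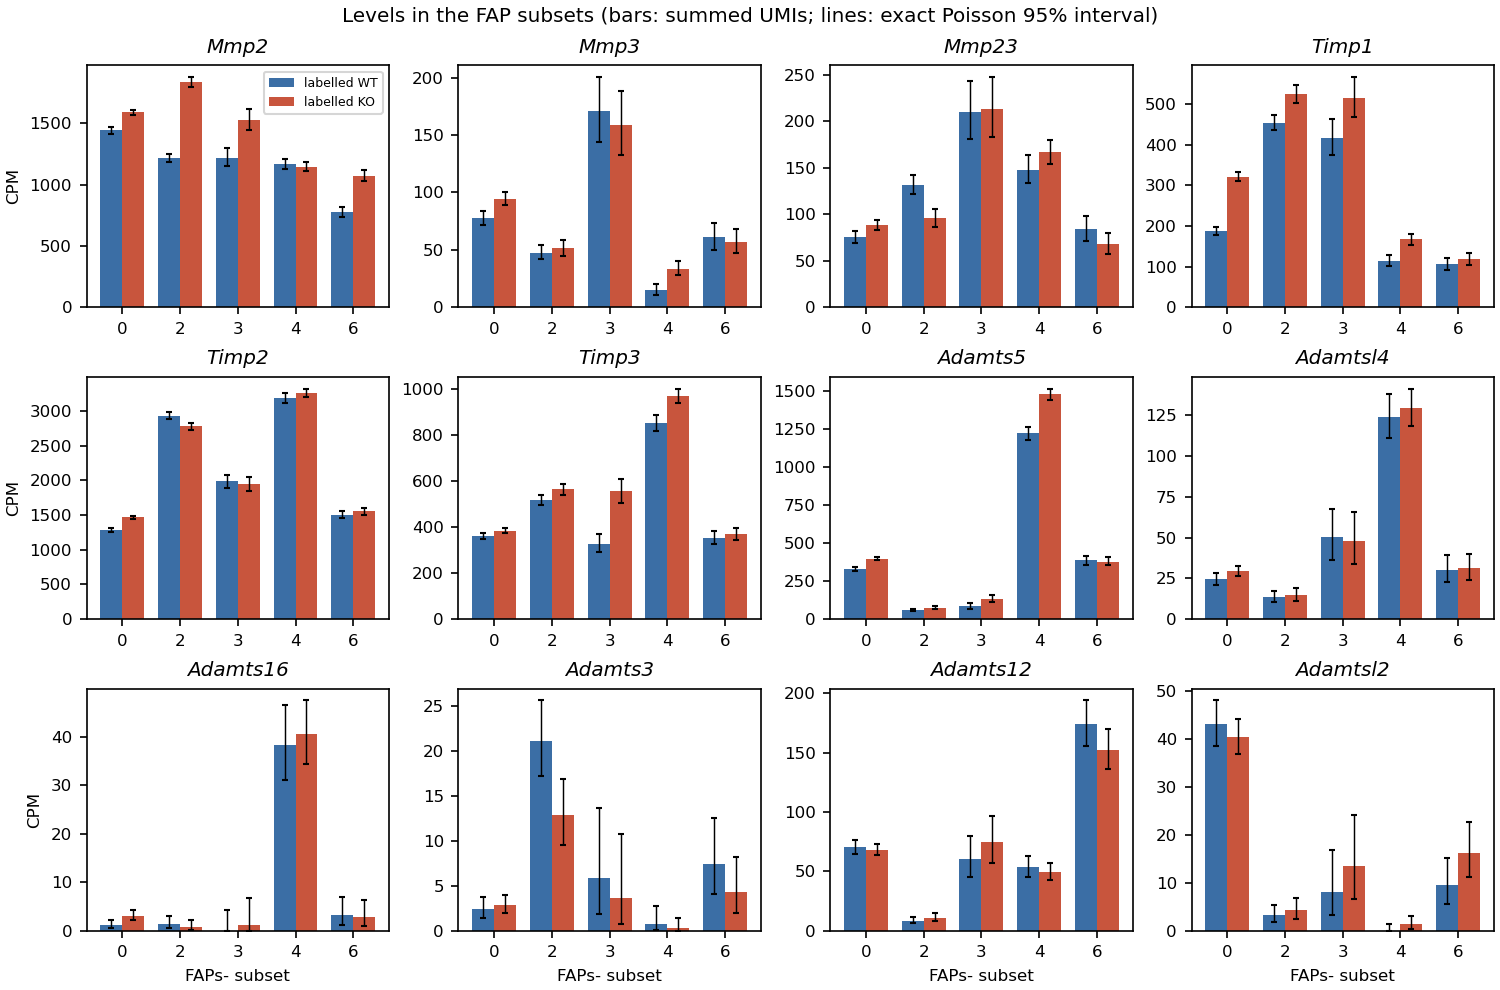
Levels of 12 genes in CPM (bars from 0) in the subsets FAPs-0, FAPs-2, FAPs-3, FAPs-4 and FAPs-6, where blue bars are the WT-labelled and red bars the KO-labelled library, and lines are exact Poisson 95% intervals. The order of the subsets is much alike in both libraries for Adamts5, Adamtsl4, Adamts16, Adamts12 and Timp2.

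The comparison of the libraries asks how far the proteases and inhibitors of each cell type differed between muscle labelled GSDME-KO and WT. A gene is counted as higher or lower where it had at least 20 UMIs over both libraries and a ratio of at least 1.5. Ratios are given as log2 of the KO-labelled over the WT-labelled level, mostly followed by the interval. In FAP-like cells 1 of 39 genes was higher in the KO-labelled library and 7 of 39 were lower, while 5.8% and 7.79% of all 13494 genes were so. The abundant FAP genes moved by less than 1.5-fold: Mmp2 had a log2 ratio of 0.26 (0.24 to 0.28), Mmp14 0.21 (0.16 to 0.26), Timp1 0.34 (0.29 to 0.39), Timp2 -0.02 (-0.04 to -0.01) and Timp3 0.12 (0.08 to 0.16). Adamts5, from 377 to 505 CPM, was at 0.42 (0.38 to 0.47). Summed by family, Mmp genes went from 1771 to 2065 CPM, log2 ratio 0.22 (0.20 to 0.24), Timp genes from 2789.5 to 2859 CPM, log2 ratio 0.04 (0.02 to 0.05), Adamts genes from 1783 to 1906 CPM, log2 ratio 0.10 (0.08 to 0.12) and Adamtsl genes from 237 to 242 CPM, log2 ratio 0.03 (-0.03 to 0.09). Without the cluster of tendon markers, 0 genes were higher and 6 lower, and Mmp2, Timp1 and Timp2 were at 0.16 (0.14 to 0.19), 0.53 (0.45 to 0.60) and 0.10 (0.08 to 0.13). The family sums were then at 0.15 for Mmp, 0.14 for Timp, 0.012 for Adamts and -0.03 for Adamtsl genes. The median log2 ratio of all 39 genes, with that cluster, was 0.19 and that of all genes tested -0.03.

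The higher gene was Adamts17, from 3.84 to 6.30 CPM (log2 ratio 0.71, 0.29 to 1.15), in 60 of 2136 and 117 of 2542 cells. With each cell thinned to 1000 UMIs its log2 ratio was -0.26, and without the cluster of tendon markers it was 0.51 (0.02 to 1.01), no longer past 1.5-fold. Of the 7 lower genes, 5 had an interval that left out equality, and Mmp13 and Mmp17 did not. Adamts9 fell from 47.9 to 28.0 CPM (log2 ratio -0.77, -0.92 to -0.63), and most of this lay in FAPs-0 (44.8 to 18.3 CPM, log2 ratio -1.29, -1.54 to -1.04), while FAPs-2 stood at 61.1 and 58.2. Adamts3 fell from 7.95 to 4.46 (log2 ratio -0.83, -1.21 to -0.46), and stood at 21.1 and 12.8 in FAPs-2, a subset that made up fewer of the FAP-like cells of the KO-labelled library. Without the cluster of tendon markers Adamts3 was at -0.16 (-0.79 to 0.48). Adamts8 fell from 6.25 to 4.07 (log2 ratio -0.62, -1.03 to -0.21), or 0.40 with cells thinned to 1000 UMIs, and Mmp15 from 2.63 to 1.27 (log2 ratio -1.05, -1.77 to -0.36). Timp4 fell from 5.81 to 1.53 (log2 ratio -1.92, -2.52 to -1.36). Of its 106 and 35 UMIs, 66 and 10 lay in the 38 and 30 FAP-like cells of 2 groups led by endothelial or immune genes; without them it stood at 2.25 and 1.11 CPM. FAPs-2 went the other way, with 14 and 18 UMIs, and without the cluster of tendon markers the log2 ratio was -2.74 (-3.65 to -1.93). The 8 endothelial markers summed to 69.9 and 39.9 CPM in FAP-like cells, and their part in the Timp4 value was not tested.

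**Figure D5:**
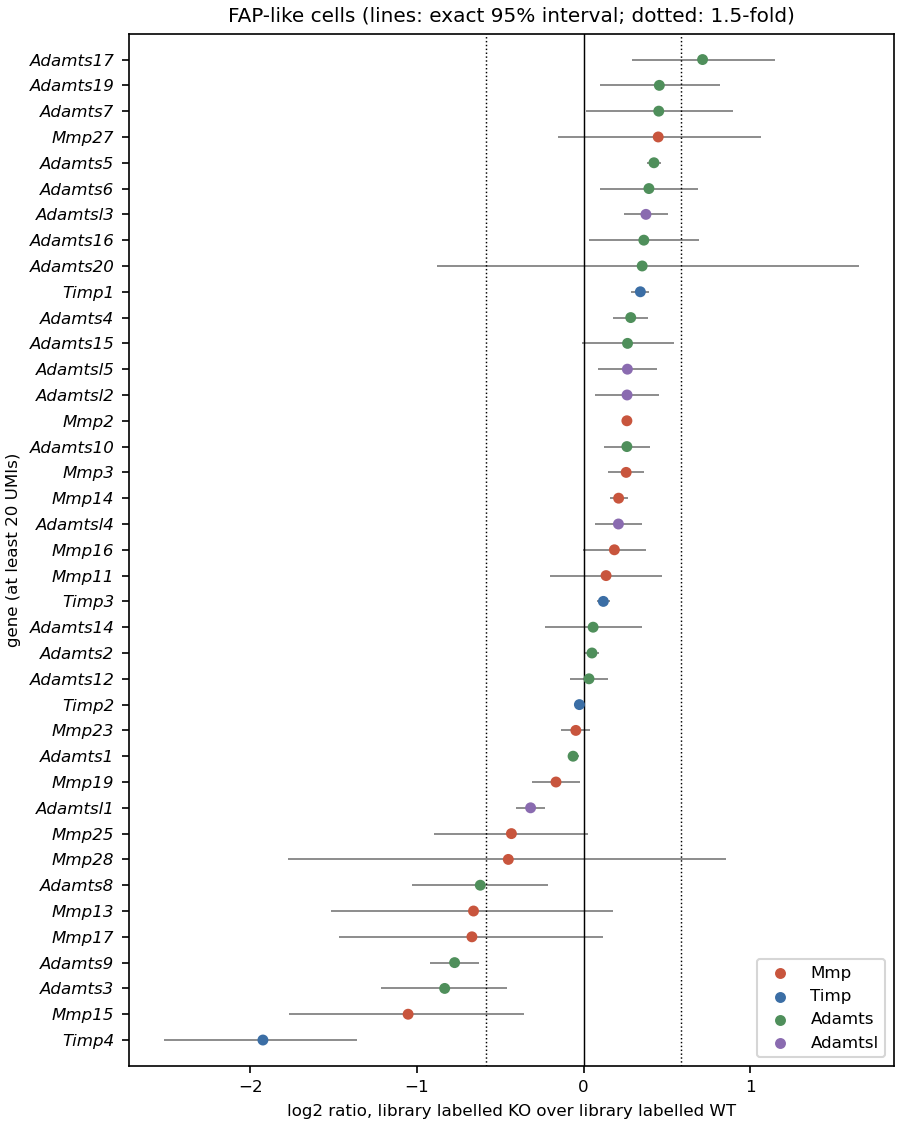
Log2 ratio of the KO-labelled over the WT-labelled library in FAP-like cells for the 39 genes with at least 20 UMIs, where points are colored by family, lines are exact 95% intervals and dotted lines mark 1.5-fold. Most abundant genes lie between 0 and 0.42, Adamts17 is the only point past the line on the right, and Timp4 is the lowest point at -1.92.

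By subset, Timp1 was higher in FAPs-0. It went from 187 to 322 CPM in FAPs-0 (log2 ratio 0.78, 0.69 to 0.87), from 114 to 167 in FAPs-4 and from 454 to 525 in FAPs-2. In FAPs-0 it was read in 348 of 956 and 675 of 1304 cells. Mmp2 rose in FAPs-2, from 1217 to 1837 CPM (log2 ratio 0.59, 0.54 to 0.64), and stood at 1171 and 1147 in FAPs-4. In FAPs-4, Mmp3 went from 14.9 to 33.7 (log2 ratio 1.17, 0.65 to 1.73), Adamts15 from 18.4 to 36.6 (log2 ratio 0.99) and Adamts4 from 31.8 to 58.6 (log2 ratio 0.88, 0.51 to 1.27). Adamts15 went the other way in FAPs-0, from 12.3 to 7.35 (log2 ratio -0.74, -1.18 to -0.30). FAPs-0 also had less Timp4 (log2 ratio -2.23, -4.04 to -0.69), Mmp15 (log2 ratio -2.15, -3.64 to -0.86) and Adamts8 (log2 ratio -1.05, -1.50 to -0.61). They had more Adamts6 (7.51 to 11.6 CPM, log2 ratio 0.62) and Adamts16 (log2 ratio 1.40, 0.32 to 2.64), the latter in 7 of 956 and 25 of 1304 cells. In FAPs-3, Timp3 went from 327 to 555 (log2 ratio 0.76, 0.54 to 0.98) and Adamts5 from 85.3 to 134 (log2 ratio 0.65, 0.21 to 1.10). In FAPs-6, Adamts6 went from 3.74 to 10.1 (log2 ratio 1.43, 0.15 to 2.91). These differences between subsets were not tested.

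The partners of MMP2 activation were read together in many FAP-like cells. With each cell thinned to 1000 UMIs and shallower cells left out, 13.7% (12.3 to 15.2) of 2103 WT-labelled and 15.1% (13.7 to 16.6) of 2511 KO-labelled FAP-like cells had a UMI of Mmp14, Timp2 and Mmp2 alike. At full depth the shares were 67.3% and 75.3%. Alone, Mmp14 was read in 23.5% and 24.8% and Timp2 in 78.7% and 79.4% of the thinned cells. Whether the 3 genes met in a cell more often than their single shares give was not tested. For Mmp2 alone, the thinned share was 65.7% (63.6 to 67.7) and 70.5% (68.7 to 72.3) in FAP-like cells, against 0.912% and 1.01% in endothelial-like cells. The unthinned shares were 94.7% and 96.3%, and 4.13% and 5.53%. The median depth was 7924 and 8511 UMIs per FAP-like cell and 4459 and 4169 per endothelial-like cell.

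Genes that work around these proteases were compared in FAP-like cells from lists of their own. None of 7 genes of protease activation (such as Plau and Furin) and none of 5 genes of procollagen processing (Bmp1, Pcolce and others) reached 1.5-fold. Of 7 further inhibitors 2 were lower, Serpinf2 (from 1.48 to 0.481 CPM, log2 ratio -1.62, -2.78 to -0.56) and Spock3 (from 10.1 to 5.60 CPM, log2 ratio -0.85, -1.19 to -0.52). Of 8 Adam genes 1 was higher, Adam8 (from 1.48 to 2.32 CPM, log2 ratio 0.65, -0.05 to 1.37), a sheddase of leukocytes. Of 3 lecticans, the proteoglycans that ADAMTS enzymes cut, 1 was lower, Acan (from 5.10 to 3.11 CPM, log2 ratio -0.72, -1.18 to -0.25). The shares over all genes of these cells were 5.8% higher and 7.79% lower. For comparison, 11 of 27 immediate-early and heat-shock genes were higher and none was lower, with a median log2 ratio of 0.42. These genes respond to tissue dissociation, and their part in the values above was not tested.

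In endothelial-like cells 4 of 25 genes were higher (5.81% of all genes) and 3 of 25 lower (5.95%). Timp4 had the largest number of UMIs among them. It had 5189 UMIs in the WT-labelled and 2777 in the KO-labelled library, that is 687 and 391 CPM, log2 ratio -0.81 (-0.88 to -0.75). It was read in 867 of 1234 and 746 of 1212 cells, and in 41.2% (38.4 to 44.0) and 29.7% (27.1 to 32.4) of cells thinned to 1000 UMIs, against 0.571% and 0.239% of FAP-like cells. It was lower in both endothelial clusters, with -0.86 (-0.94 to -0.79) in the Flt1 cluster and -0.65 (-0.79 to -0.50) in the Aplnr cluster, and in the cluster of pericyte and endothelial markers (343 to 249.7 CPM, log2 ratio -0.46, -0.57 to -0.35). Timp3 (log2 ratio -0.09, -0.14 to -0.05), Adamts1 (log2 ratio 0.12, 0.08 to 0.15) and Adamts9 (log2 ratio 0.10, 0.02 to 0.18), the other abundant genes of the set there, stayed within 1.5-fold. Mmp14 rose from 22.0 to 39.3 CPM (log2 ratio 0.84, 0.56 to 1.12), with 0.91 (0.61 to 1.22) in the Flt1 cluster and 0.39 (-0.39 to 1.17) in the Aplnr cluster. Adamts8 had 5 and 20 UMIs (log2 ratio 2.09, 0.63 to 3.86). Timp1, at 3.84 and 5.91 CPM, and Timp2, at 49.2 and 39.4, were low in these cells, with log2 ratios of 0.62 (-0.09 to 1.36) and -0.32 (-0.55 to -0.09). Mmp2 stood at 9.40 and 11.5 and Mmp9 at 3 UMIs and 1 UMI.

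In macrophage-like cells 6 of 25 genes were higher (7.55% of all genes) and 3 of 25 lower (8.72%). Mmp19, which cuts basement membrane proteins, fell from 216 to 112 CPM (log2 ratio -0.95, -1.09 to -0.80). This lay in the Ms4a7 cluster, with 288 and 131 CPM (log2 ratio -1.14, -1.29 to -0.98), whereas in the Folr2 cluster it stood at 45.9 and 67.2 (log2 ratio 0.55, 0.03 to 1.08). In the WT-labelled library 1 cell held 80 of the 1014 UMIs, and without the highest cell of each library the ratio was -0.87 (-1.02 to -0.72). Mmp13 rose from 12.4 to 23.9 (log2 ratio 0.95, 0.50 to 1.42), on 31 of 852 and 40 of 1033 cells. Timp1 rose from 8.75 to 19.4 (log2 ratio 1.15, 0.62 to 1.70) and Timp4 fell from 6.62 to 2.23 (log2 ratio -1.57, -2.62 to -0.59), beside endothelial markers of 68.1 and 42.3 CPM, whose part was not tested. Mmp9 (log2 ratio 0.04, -0.23 to 0.31), Mmp14 (log2 ratio 0.26, 0.00 to 0.52) and Timp2 (log2 ratio 0.05, -0.01 to 0.11) stayed within 1.5-fold.

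Mmp2 (58.3 to 89.7 CPM, log2 ratio 0.62, 0.41 to 0.84), Timp3 (30.9 to 49.8, log2 ratio 0.69, 0.39 to 0.98) and Adamts5 (23.5 to 42.3, log2 ratio 0.85, 0.52 to 1.19) were also higher in macrophage-like cells. A small macrophage cluster of 28 and 34 cells led by Pf4 and Folr2 held 207 of 273 and 409 of 522 Mmp2 UMIs, 60 of 145 and 195 of 290 Timp3 UMIs, and 85 of 110 and 194 of 246 Adamts5 UMIs. All 8 FAP markers were detected in macrophage-like cells and summed to 2792 CPM in the WT-labelled and 3779 in the KO-labelled library, and their part in these ratios was not tested. Timp3 had log2 ratios of -0.09 (-0.59 to 0.41) in the Ms4a7, -0.21 (-1.17 to 0.74) in the Folr2 and 0.89 (0.47 to 1.33) in the Pf4 cluster. Mmp2 and Adamts5 were also higher in the Ms4a7 cluster, at 0.65 (0.14 to 1.18) on 49 and 96 UMIs and 1.04 (0.17 to 1.97) on 16 and 41 UMIs. In the Folr2 cluster they were at -0.14 (-1.20 to 0.92) and 0.15 (-1.26 to 1.60), and in the Pf4 cluster itself at 0.17 (-0.07 to 0.42) and 0.38 (0.00 to 0.77). The mean over cells gave -0.08 for Mmp2 in all macrophage-like cells.

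In MuSC-like cells 8 of 19 genes were higher in the KO-labelled library (16.1% of all genes) and 1 of 19 lower (11.8%). Timp1 went from 63.5 to 129 CPM (log2 ratio 1.03, 0.69 to 1.37), in 46 of 248 and 64 of 249 cells. Adamtsl1 went from 35.0 to 76.5 (log2 ratio 1.13, 0.68 to 1.59) and Adamts5 from 107 to 175 (log2 ratio 0.71, 0.44 to 0.98). Mmp19 went from 5.92 to 22.3 (log2 ratio 1.92, 0.90 to 3.05), with 14 of 33 KO-labelled UMIs in 1 cell. Adamts4, Adamts10 and Adamts14, at 25.3 and 41.3, 35.0 and 53.5, and 9.15 and 17.6 CPM, had log2 ratios of 0.71 (0.13 to 1.29), 0.61 (0.12 to 1.11) and 0.94 (0.01 to 1.92), the first at -0.16 with cells thinned to 1000 UMIs. The FAP markers stood at 4773 and 4464 CPM in these cells, while 15 of 27 immediate-early and heat-shock genes were higher there, with a median log2 ratio of 0.70, and their part in these values was not tested. Mmp2 (-0.07), Timp2 (0.13) and Timp3 (0.12) stayed within 1.5-fold.

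In pericyte-or-smooth-muscle-like cells 3 of 15 genes were higher (13.6% of all genes) and 3 of 15 lower (12.9%). The lower genes were Adamts4, Adamts9 and Timp1, while Adamts1, at 1778 and 1519 CPM, stayed within 1.5-fold. Adamts4 fell from 862 to 505 CPM (log2 ratio -0.77, upper bound -0.54), in 70 of 183 and 56 of 201 cells, and Adamts9 from 555 to 228 (log2 ratio -1.28, -1.61 to -0.96), in 69 and 46 cells. The cluster of pericyte and endothelial markers, which has a median of 12725 and 12827 UMIs per cell against 1829 and 1753, did not share this: Adamts4 stood there at 419 and 471 and Adamts9 at 349 and 347 CPM. Hemoglobin and other red cell RNA summed to 128 CPM in the WT-labelled and 20064 in the KO-labelled pericyte-or-smooth-muscle-like cells, and to 2689 and 2091 in the cluster of pericyte and endothelial markers. Its part in these values was not tested. Mmp2 was higher, from 24.6 to 85.1 (log2 ratio 1.79, 0.81 to 2.89), beside FAP markers that summed to 3254 and 6197 CPM, and the part of such RNA was not tested. Timp4 rose from 15.7 to 60.0 (log2 ratio 1.94, 0.73 to 3.36), but 20 of its 31 KO-labelled UMIs were in 1 cell and the mean over cells gave -0.54. The cluster of pericyte and endothelial markers had more Mmp19 (log2 ratio 1.78, 0.81 to 2.88), Adamts8 (log2 ratio 3.07, 1.39 to 5.43) and Mmp28 (log2 ratio 1.51, 0.02 to 3.31), on 45, 30 and 17 KO-labelled UMIs.

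Schwann cell-like cells held more Timp1 in the KO-labelled library, 34.3 and 118 CPM (log2 ratio 1.78, 1.23 to 2.36), and without the highest cell of each library the ratio was 1.25 (0.63 to 1.91). FAP markers summed to 9639.7 and 5677 CPM in these cells, and their part in the Timp1 values was not tested. Timp4 fell from 29.7 to 5.41 (log2 ratio -2.45, -4.17 to -1.08), beside endothelial markers of 691 and 542 CPM, whose part was not tested, and Mmp19 from 15.8 to 4.33 (log2 ratio -1.86, -3.89 to -0.25) on 17 and 4 UMIs. Mmp3 went from 8.34 to 81.2 (log2 ratio 3.28, 2.28 to 4.47), but all 75 KO-labelled UMIs lay in 1 cell.

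In dendritic cell-like cells 1 of 9 genes was higher (14.1% of all genes) and 4 of 9 lower (11.3%). Timp1 was also higher there, with 28.3 and 82.6 CPM (log2 ratio 1.54, 0.91 to 2.22), in 9 of 116 and 22 of 129 cells. Adamts5 (log2 ratio -2.51, -4.07 to -1.22), Mmp2 (log2 ratio -0.92, -1.80 to -0.07) and Adamts1 (log2 ratio -0.87, -1.45 to -0.30) were lower there, beside FAP markers that fell from 2445 to 1106 CPM. The part of stromal RNA was not tested. These 3 changed direction under another choice: thinned to 1000 UMIs per cell, Mmp2 was at 0.40 and Adamts1 at 0.82, and without doublets by Scrublet Adamts5 was at 0.31. Of all genes, 15.2% were higher and 8.14% lower in lymphatic endothelial-like cells, and 12.8% and 17.5% in T cell-like cells. In lymphatic endothelial-like cells Adamtsl1 rose (log2 ratio 1.08, 0.43 to 1.76) and Adamts5 fell from 71.4 to 34.3 (log2 ratio -1.06, -1.86 to -0.30), and Mmp2 had 5 and 19 UMIs (log2 ratio 1.96, 0.49 to 3.74). T cell-like cells had less Mmp25 in the KO-labelled library, 102 and 30.1 CPM (log2 ratio -1.76, -2.83 to -0.80), in 25 of 81 and 9 of 86 cells, and less Mmp2 (log2 ratio -1.58, -2.96 to -0.37), whose 23 and 8 UMIs lay in 4 and 2 cells, beside FAP markers of 4200.1 and 2373 CPM, whose part was not tested.

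In the types with the fewest cells, values rested on single cells. In neutrophil-like cells Mmp8 had 3 and 20 UMIs (log2 ratio 2.73, 0.98 to 5.12), in 3 of 25 and 7 of 33 cells, and Mmp9 had 5 and 26 (log2 ratio 2.37, 0.97 to 4.11), with 14 of the 26 in 1 cell. Mmp12 had 385 and 3 UMIs there (log2 ratio -7.01, -9.29 to -5.45), and Mmp19, at 47 and 27 UMIs (log2 ratio -0.81, -1.55 to -0.09), had a ratio of 0.02 (-1.16 to 1.21) without the highest cell of each library. In B cell-like cells Mmp2 (log2 ratio 4.03, 1.44 to 9.38), Timp2 (log2 ratio 1.74, 0.65 to 3.03) and Adamts1 (log2 ratio 2.29, 0.81 to 4.25) were higher in the KO-labelled library on 30, 49 and 36 UMIs, of which 1 cell held 21, 28 and 20. FAP markers summed to 899 and 10404 CPM in these cells. In mature-muscle-like cells (31 and 63) Timp1 had 0 and 34 UMIs, and Mmp2 went from 78.2 to 274 CPM (log2 ratio 1.81, 0.71 to 3.16) on 7 and 99 UMIs in 3 and 5 cells. Timp3, from 257 to 105 CPM (log2 ratio -1.29, -2.07 to -0.47), and Adamts5, from 246 to 108 (log2 ratio -1.19, -1.98 to -0.36), were lower there, and the 22 WT-labelled UMIs of Adamts5 were all in 1 cell. In these cells FAP markers summed to 5116 and 8395 CPM, endothelial markers to 1664 and 158 and pericyte markers to 994 and 108, and their part was not tested.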

How the data were processed

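The deposited table held 19169 genes in 13432 cells from 2 libraries (Chromium 5′ kit). Per the labels the authors used Cell Ranger 2.1.1 and mm10 (the study's methods name another Cell Ranger version), and the deposited values are natural log values, ln(1 + UMIs per 10000) per cell. UMIs were recovered from them as whole numbers: 26 of 29528482 values lay more than 0.1 from one. Barcode suffix 1 was taken as GSDME-KO and suffix 2 as WT, as the series' design text gives them. Cells were clustered on 2000 variable genes without the 47 described, with 30 principal components, Harmony integration (theta 2) and Louvain at resolution 0.8, and FAP-like cells again at resolution 0.2, in Python 3.11.15 with numpy 2.4.6, scikit-learn 1.9.0 and igraph 0.11.9. Types needed 3 detected markers, and a cluster of tendon markers was joined to the FAP-like cells. The rules for names were set after the clusters were seen. Doublets were kept, with Scrublet (scanpy 1.11.5) as an alternative. Depth was 44758518 UMIs in the WT-labelled and 50930009 in the KO-labelled library, and 686 and 633 cells had under 1000. UMIs were summed per type and library (CPM), with exact Poisson, Clopper-Pearson and, for ratios, binomial 95% intervals (scipy 1.17.1). Genes with at least 20 UMIs and a ratio of at least 1.5 were counted, and between FAP subsets a ratio of at least 2 in both libraries. Levels are named for genes with at least 100 UMIs, and ratios where the interval left out equality, with the 4 TIMPs, Mmp2, Mmp9 and Mmp14 given in FAP-like, endothelial-like and macrophage-like cells whatever their ratio. The genes, lists and comparisons were chosen with earlier results of these data known. Script steps were tested on simulated data.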

Additional observations from a re-analysis of the deposited data

How the results depend on the processing

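With 1 library per genotype no value has an error between mice, and the depth limits genes of few UMIs: 4 of the 47 genes had under 20. The count of genes highest in FAP-like cells and those of the FAP subsets stayed within 1.5 times under the alternatives run for them. No paired analysis was possible because each genotype had 1 library. Most counts of genes past 1.5-fold were small and moved. In FAP-like cells the count higher was 2 at resolution 0.4, with the 47 genes among the variable ones and by the mean over cells, 3 with cells thinned to 1000 UMIs, 5 with no minimum of UMIs and 0 at a fold of 2 and without the cluster of tendon markers (chosen after seeing the data), and the count lower was 3 when thinned and 2 at a fold of 2. In endothelial-like cells the count higher was 2 with the 47 genes among the variable ones, at a minimum of 50 UMIs and without the highest cell, 0 when thinned, 9 with no minimum and 1 at a fold of 2, and the count lower was 6 without integration, 5 by the mean over cells, 1 at 50 UMIs, 12 with no minimum and 0 at a fold of 2. In macrophage-like cells the count higher was 2 when thinned, 11 with no minimum and 2 at a fold of 2, and the count lower was 6 at resolution 0.4, 5 with the 47 genes among the variable ones, 8 by the mean over cells, 1 at 50 UMIs, 7 with no minimum and 1 at a fold of 2. In MuSC-like cells the count higher was 2 when thinned and 3 at a fold of 2, and the count lower was 0 when thinned, 0 at 50 UMIs and 10 with no minimum. Thinning leaves fewer UMIs per gene, and a missing minimum adds genes of few UMIs. For none of these moves was the cause tested. The summed log2 ratios in FAP-like cells moved to 0.20 (thinned) and 0.19 (mean over cells) for Mmp genes, 0.059 and 0.11 for Timp genes, and 0.11 (thinned) for Adamtsl genes. Without the cluster of tendon markers they were 0.15 for Mmp, 0.14 for Timp and 0.012 for Adamts genes.

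Among genes past 1.5-fold with an interval that left out equality, single log2 ratios changed sign as follows, with the cause not tested. Thinned to 1000 UMIs, Adamts17 in FAP-like cells was at -0.26, Adamts8 in FAP-like cells at 0.40, Adamts4 in MuSC-like cells at -0.16, and Mmp2 and Adamts1 in dendritic cell-like cells at 0.40 and 0.82. By the mean over cells, Mmp2 was at 0.11 in dendritic cell-like and -0.082 in macrophage-like cells and Timp4 at -0.54 in pericyte-or-smooth-muscle-like cells. Adamts5 in dendritic cell-like cells was at 0.31 without doublets, and Timp3 in macrophage-like cells at -0.12 at resolution 0.4. Within single macrophage clusters, a split chosen after seeing the data, Timp1 was at -0.72 in the Pf4 cluster, Timp3 at -0.092 in the Ms4a7 and -0.21 in the Folr2 cluster, Mmp19 at 0.55 in the Folr2 and 0.24 in the Pf4 cluster, and Mmp2 at -0.14 in the Folr2 cluster. In the cluster of pericyte and endothelial markers, also added after seeing the data, Adamts4 was at 0.17, Timp4 at -0.46 and Mmp2 at -0.56. Of the other values of single genes, 323 stayed within their interval and 38 moved out of it under the alternatives set at the start. Under those added later, which also left out the highest cell or the FAP-like groups led by endothelial or immune genes, these were 80 and 21. For genes given whatever their ratio, a change of sign was not tracked. Timp2 in FAP-like cells, for example, went from -0.02 to 0.10 without the cluster of tendon markers.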
